A study of Rattus norvegicus with 14 samples.

Results

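Neuropeptides are short signalling chains cut from larger precursor proteins, stored in dense-core vesicles and released beside the fast transmitters of a neuron. The transcripts described here encode the precursors of 10 neuropeptides of the dentate gyrus: proenkephalin (Penk), prodynorphin (Pdyn), cholecystokinin (Cck), neuropeptide Y (Npy), CART (Cartpt), PACAP (Adcyap1), somatostatin (Sst), vasoactive intestinal peptide (Vip), corticotropin-releasing hormone (Crh) and the substance P precursor (Tac1). They were taken as all probe sets whose only gene symbol in the platform annotation was one of these 10 names, which gave 10 probe sets, 1 per gene, of 15866 that are not array controls and 10 of the 10411 genes named by a single symbol. A probe set is the group of short oligonucleotides on the array that reads 1 transcript.

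The tissue was the microdissected dentate gyrus of male Long-Evans rats aged 3 to 4 months, and all rats carried the same history of standard water maze training 2 to 3 weeks before. In the last session of 8 trials, at 8-min intervals and in an unfamiliar pool, the 7 learning rats swam to a visible platform that kept its place among spatial cues. The 7 control rats had a visible platform that moved from trial to trial and no informative cues. Both groups had a 90-s probe swim 1 h later, after which tissue was taken at once, so no rat was left without swimming. RNA of each rat went to 1 array. The values are log2 expression values, on which 1 unit is a doubling. Array medians lay between 5.09 and 5.12, and any pair of arrays correlated at 0.995 to 0.998 across probe sets. The granule cell markers Stxbp6, at 10.88 ± 0.19 in learning and 10.67 ± 0.19 in control rats (SD, n = 7 each), and Calb1, at 10.79 ± 0.10 in learning and 10.82 ± 0.08 in control rats (SD, n = 7 each), were the brightest of the 6 granule cell markers on the array. Dsp averaged 6.81 in learning and 6.37 in control rats, and Tdo2 lay under the mean of 4 needed for testing, at 2.71 in both groups.

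In the dentate gyrus the opioid precursors Penk and Pdyn are best known from the granule cells and their mossy fibres, where dynorphin acts back on the input to the granule cells. Npy and Sst are classical markers of GABAergic interneurons of the hilus, Cck and Vip mark basket and interneuron-selective cells, and Cartpt has been described in granule cells and hilar neurons. Several of these genes are textbook targets of the cAMP response element binding protein CREB, a transcription factor switched on by neuronal activity.

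For that reason the stretch around the transcription start (250 bases before to 50 after it, RefSeq, build GRCr8) was searched on both strands for the full cAMP response element TGACGTCA and its first 5 bases TGACG, which the full element contains. Windows of 7 of the 10 genes were matched in the RefSeq table used here, and those of Penk, Cck and Crh were not analysed here. Cartpt (chr2:32991186-32991485, minus strand), Pdyn (chr3:137366454-137366753, minus strand) and Npy (chr4:80211861-80212160, plus strand) are shown whole as examples of a window with the full element, one with a TATA box alone and one with none of the motifs searched. For Sst (chr11:90461522-90461581, plus strand), Vip (chr1:44470357-44470416, plus strand) and Tac1 (chr4:36645351-36645410, plus strand), 60 bases around the match are shown. Each runs 5′ to 3′ along its gene, and capitals mark the cAMP element, whole or in part, and the TATA box TATAAA. In Tac1 the element is read from the opposite strand.
Cartpt: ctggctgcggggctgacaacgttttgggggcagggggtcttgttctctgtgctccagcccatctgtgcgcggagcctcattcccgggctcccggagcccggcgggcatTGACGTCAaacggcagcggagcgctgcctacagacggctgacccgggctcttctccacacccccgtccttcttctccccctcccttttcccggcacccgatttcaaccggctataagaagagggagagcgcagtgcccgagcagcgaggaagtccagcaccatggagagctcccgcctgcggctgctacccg
Pdyn: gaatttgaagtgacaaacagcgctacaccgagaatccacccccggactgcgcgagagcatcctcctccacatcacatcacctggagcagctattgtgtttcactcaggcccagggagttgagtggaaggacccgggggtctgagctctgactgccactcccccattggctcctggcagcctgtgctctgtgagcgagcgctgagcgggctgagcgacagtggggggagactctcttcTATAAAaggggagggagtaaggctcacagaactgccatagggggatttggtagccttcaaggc
Npy: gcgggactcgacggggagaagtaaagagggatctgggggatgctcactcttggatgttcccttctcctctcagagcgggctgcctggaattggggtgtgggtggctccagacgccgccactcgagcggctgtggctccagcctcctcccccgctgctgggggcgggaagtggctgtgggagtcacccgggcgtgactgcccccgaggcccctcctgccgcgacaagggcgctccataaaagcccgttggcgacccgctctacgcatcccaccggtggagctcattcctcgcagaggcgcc
Sst: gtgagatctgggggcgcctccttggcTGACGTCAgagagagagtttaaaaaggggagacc
Vip: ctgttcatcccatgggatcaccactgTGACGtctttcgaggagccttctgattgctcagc
Tac1: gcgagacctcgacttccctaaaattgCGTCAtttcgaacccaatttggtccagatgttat

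The full element stood in 2 of the 7 peptide gene windows, those of Cartpt and Sst, and in 1.83% of all 33469 windows of the table. It began at -142 in Cartpt and at 3 in Sst, counted from the annotated start with no position 0. The 5-base form stood in 4 of 7 windows (Cartpt, Sst, Tac1 and Vip) and in 21.2% of all windows. In Vip it began at -97 and in Tac1 at -206. TATAAA was found for Pdyn at -13, for Vip at -175, -165 and -48, and for Adcyap1 at -248 (14.2% of all windows). The E-box CACGTG was found for Tac1 (6.42%), and the AP-1 motif TGANTCA in 0 of 7 windows (7.33% of all). The Pdyn and Npy windows held neither form of the cAMP element. These are matches of letters within 1 window and say nothing of binding. Whether the annotated starts are those used in the dentate gyrus was not tested.

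Of the 10 peptide transcripts, 6 were bright enough to test, with 4 as the lowest mean level accepted: Penk, Pdyn, Cck, Npy, Cartpt and Adcyap1. The other 4, Sst, Vip, Crh and Tac1, lay under that level. None of the 6 differed between learning and control rats beyond the spread between rats: limma called 0 of them at an adjusted p below 0.05, against 0% of all 9387 tested probe sets, and 0 at an unadjusted p below 0.05, against 13.1% of all (6.43% higher and 6.67% lower in learning rats). For 0 of the 10 did the groups fail to overlap, against 0.405% of the tested probe sets. Learning rats had the higher mean for 3 of the 6 and the lower mean for the other 3. Their median absolute difference was 0.09 log2 units, against 0.08 over all tested probe sets. In dissected tissue, fewer cells of a type and less RNA per cell cannot be told apart.

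**Figure D1:**
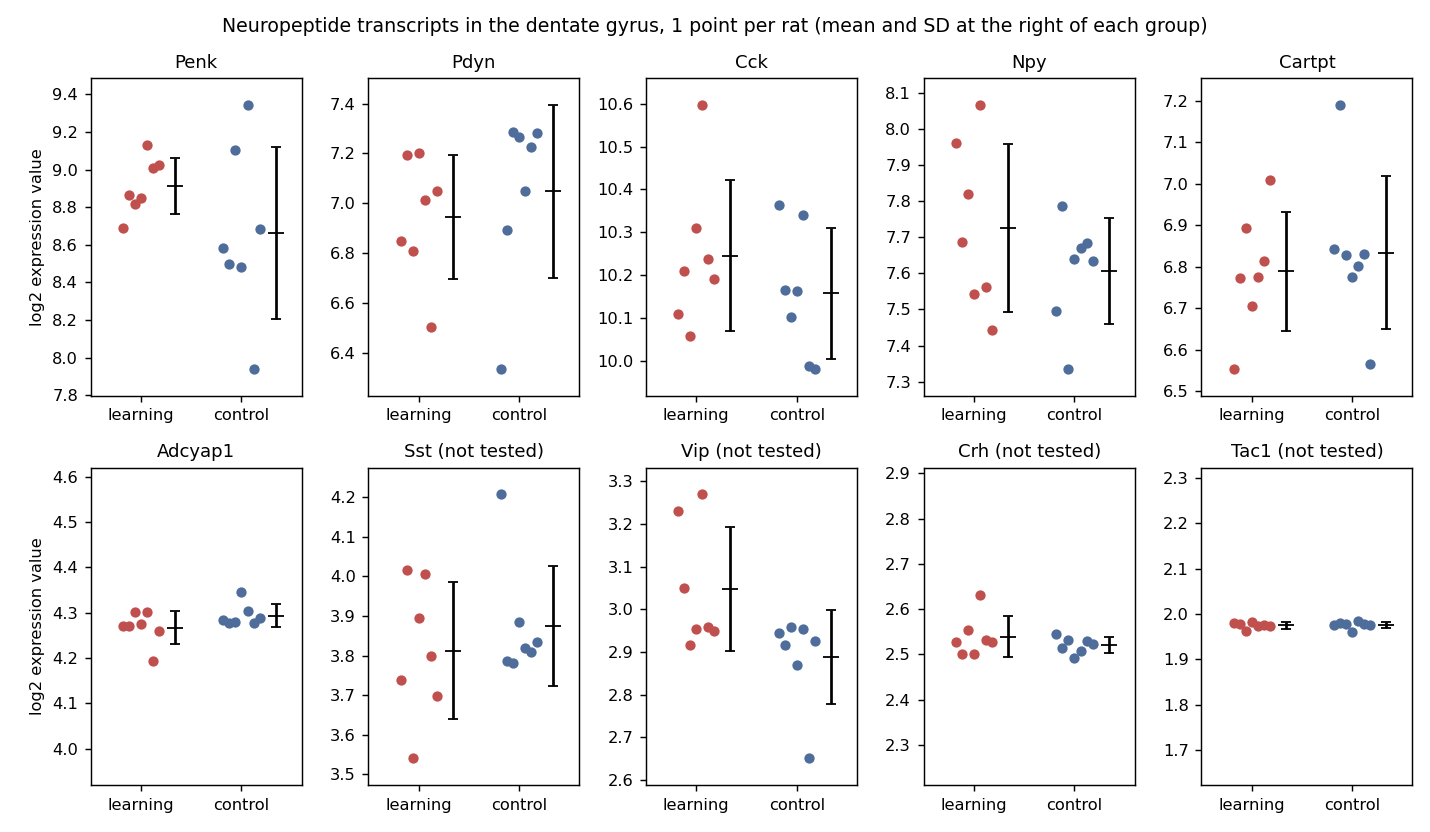
Log2 expression values (vertical axes, each with its own range) of the 10 peptide transcripts in learning rats and control rats. Each point is 1 rat, and the bar at the right of each group gives its mean and SD (n = 7). The groups overlap in every panel. Penk is the panel in which control rats spread most, between 7.94 and 9.34.

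Penk, the precursor of the enkephalins, had the largest average difference of the tested 6. Its level ran from 8.69 over a median of 8.86 to 9.13 in learning rats, against 7.94 over a median of 8.58 to 9.34 in control rats. All 7 learning rats lay above the control median, and 5 of 7 control rats lay below every learning rat, but 1 control rat, replicate 5, lay above them all. The average was 8.91 ± 0.15 in learning and 8.66 ± 0.46 in control rats (SD, n = 7 each). This is a difference of 0.25 ± 0.16 log2 units (SE), or 1.19-fold with a 95% confidence interval from 0.932 to 1.52 (limma adjusted p = 0.531; exact two-sided permutation p = 0.198). Single control rats moved it: it was 0.36 without control replicate 5, where the unadjusted p was 0.0215 and the adjusted p 0.330 in limma, and 0.13 without control replicate 6, the lowest rat.

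Pdyn, the precursor of the dynorphins, was spread widely in learning rats, and in control rats 1 low rat, replicate 1, widened the range. It ran from 6.50 over a median of 7.01 to 7.20 in learning rats, against 6.34 over a median of 7.22 to 7.28 in control rats. All 7 learning rats lay below the control median, 4 control rats lay above every learning rat, and 1 control rat, replicate 1, lay below them all. The group averages were 6.95 ± 0.25 in learning and 7.05 ± 0.35 in control rats (SD, n = 7 each), a difference of -0.10 ± 0.15 (SE; limma adjusted p = 0.787), or 0.932-fold with a 95% confidence interval from 0.75 to 1.16. Without control replicate 1 the difference was -0.22, and without learning replicate 6 it was -0.03.

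Cck, which encodes cholecystokinin and is made by pyramidal neurons as well as by basket cells, had values near the top of the array. It ran from 10.06 over a median of 10.21 to 10.60 in learning rats, against 9.98 over a median of 10.16 to 10.36 in control rats. One learning rat, replicate 5, lay above every control rat, and 2 control rats lay below every learning rat. The difference was 0.09 ± 0.09 (SE; limma adjusted p = 0.667), 1.06-fold with a 95% confidence interval from 0.937 to 1.20, and 0.03 without learning replicate 5.

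Npy, the interneuron peptide that damps excitation in the hilus, ran from 7.44 over a median of 7.69 to 8.07 in learning rats, against 7.33 over a median of 7.64 to 7.79 in control rats. The 3 learning rats of highest level lay above every control rat, and 3 learning rats lay below the control median. The difference was 0.12 ± 0.10 (SE; limma adjusted p = 0.612), 1.09-fold with a 95% confidence interval from 0.94 to 1.26. It was 0.06 without learning replicate 5.

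Cartpt ran from 6.55 over a median of 6.77 to 7.01 in learning rats, against 6.57 over a median of 6.83 to 7.19 in control rats. Its difference was -0.04 ± 0.09 (SE; limma adjusted p = 0.839), 0.969-fold with a 95% confidence interval from 0.855 to 1.10. The sign turned without control replicate 2, the highest rat, where the value was 0.01. Adcyap1, the precursor of PACAP, sat just above the level for testing, from 4.19 over a median of 4.27 to 4.30 in learning rats, against 4.28 over a median of 4.28 to 4.35 in control rats. Here 5 learning rats lay below every control rat, but the difference was only -0.03 ± 0.04 (SE; limma adjusted p = 0.782). GCRMA, the authors' method, compresses values close to background.

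**Figure D2:**
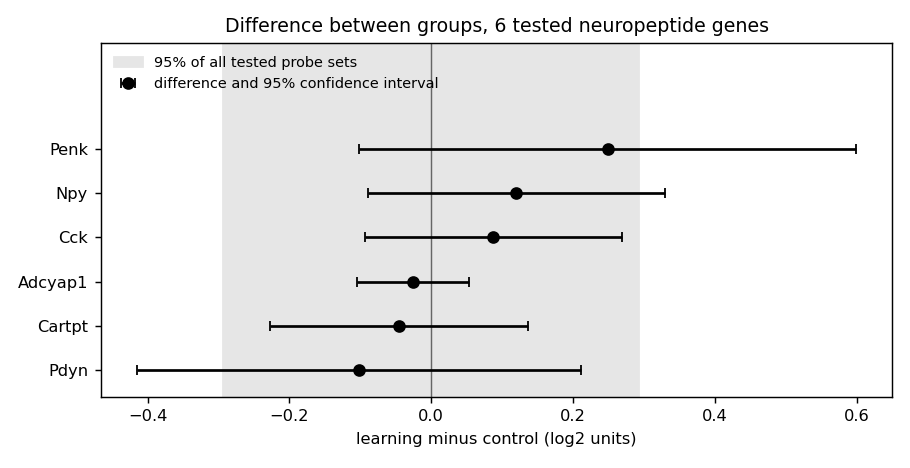
Learning minus control in log2 units (horizontal axis) for the 6 tested peptide genes, as limma's estimate with its 95% confidence interval. The grey band holds 95% of all tested probe sets (an absolute difference up to 0.29). All 6 estimates lie inside it, and all 6 intervals cross 0.

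The confidence intervals give what the 14 arrays can show. The upper bound was 0.60 log2 units for Penk, 0.33 for Npy and 0.27 for Cck, and the lower bound was -0.42 for Pdyn and -0.23 for Cartpt. A difference of these sizes is not shown to be absent.

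Sst, Vip, Crh and Tac1 had no place in the filtered fit and are given by their levels. Sst, the somatostatin gene of hilar interneurons, ran from 3.54 over a median of 3.80 to 4.02 in learning rats, against 3.78 over a median of 3.82 to 4.21 in control rats. Of the 9 interneuron markers on the array 4 passed the level for testing. The GABA synthesis gene Gad1 averaged 10.24 in learning and 10.43 in control rats. Its partner Gad2 was at 3.85 in learning and 3.69 in control rats and the vesicular GABA transporter Slc32a1 at 3.28 in learning and 3.40 in control rats. A low value of 1 probe set does not show that its transcript was missing.

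Vip, a peptide of interneuron-selective cells, ran from 2.92 over a median of 2.96 to 3.27 in learning rats, against 2.65 over a median of 2.93 to 2.96 in control rats. The 3 learning rats of highest level, at 3.23, 3.27 and 3.05, lay above every control rat. The average difference was 0.16, and 0.08 with values floored at 3. In a fit with no filter on low values limma gave Vip an adjusted p of 0.495. Its exact two-sided permutation p, not adjusted over the array, was 0.0251, the lowest of the 10 transcripts, at a level under that for testing. Crh, the stress peptide, ran from 2.50 over a median of 2.53 to 2.63 in learning rats, against 2.49 over a median of 2.52 to 2.55 in control rats. Tac1, the precursor of substance P, lay between 1.96 and 1.98 in learning rats and between the same bounds in control rats, the narrowest range of the 10 transcripts.

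The peptide probe sets covered nearly the whole range of the arrays. On the mean of all arrays, Cck lay above 94.4% of the 15866 probe sets, Penk above 84.4%, Npy above 72.2%, Pdyn above 64.9% and Cartpt above 63.2%. Adcyap1 lay above 43.4%, Sst above 39.2%, Vip above 26.6%, Crh above 17.7% and Tac1 above 5.43%. Probes differ in how strongly they bind, so these positions do not rank the transcripts by amount.

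With both groups pooled, the opioid precursors had the widest spread from rat to rat, which for Penk came from the control rats. The SD within a group, pooled over both groups, was 0.34 log2 units for Penk and 0.30 for Pdyn, above 94.7% and 91.4% of all tested probe sets, whose median was 0.16. Npy, at 0.19, lay above 66.8% of them, and Cartpt and Cck, at 0.16 each, above 52.3% and 52%. Adcyap1, at 0.03, lay above only 0.607%. For Penk the SD was 0.15 in learning rats and 0.46 in control rats, a ratio of 0.328. The Pdyn spread in control rats held 1 low value, 6.34 in replicate 1, with the next control rat at 6.89. Within learning rats Pdyn (0.25), Npy (0.23), Cck (0.18) and Sst (0.17) all had a higher SD than Penk. For Npy it was 0.23 in learning and 0.15 in control rats, a ratio of 1.57. Whether the spread itself differed between the groups was not tested.

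**Figure D3:**
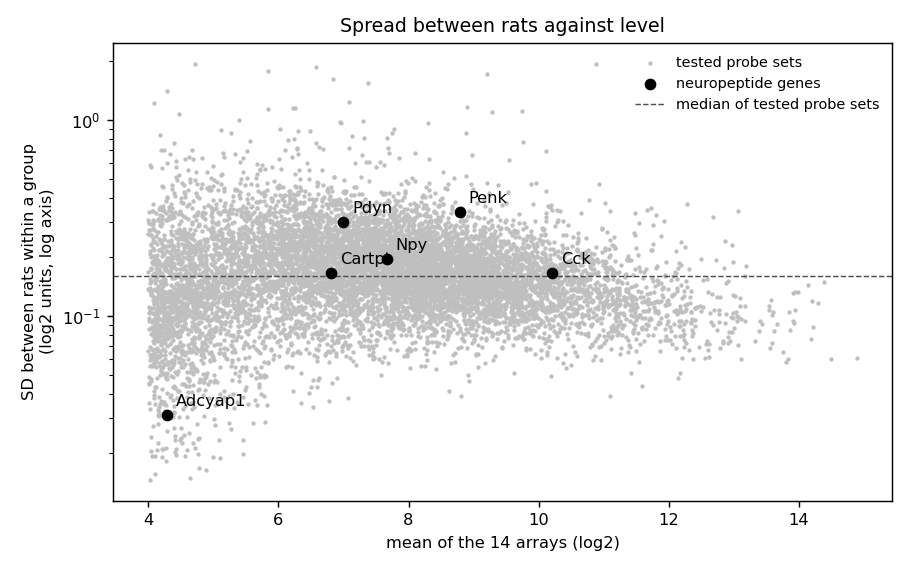
SD between rats within a group (vertical axis, log scale, log2 units) against the mean of the 14 arrays (horizontal axis, log2) for all 9387 tested probe sets in grey and the 6 tested peptide genes in black. The dashed line is the median of all tested probe sets, 0.16. Penk and Pdyn stand above most probe sets, and Adcyap1 near the bottom.

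No pair of peptides varied together from rat to rat past the threshold. Over the 15 pairs of the 6 tested genes, Pearson's r across the 14 rats ran from -0.31 to 0.52, and 0 pairs passed an adjusted p of 0.05 or an unadjusted p of 0.05 in two-sided permutation tests. The pair of highest r was Penk and Cck, with r = 0.52 (permutation p = 0.057, adjusted p = 0.855 over 15 pairs) and Spearman's rho = 0.49 (permutation p = 0.0805, adjusted p = 0.879). It was 0.73 within learning rats and 0.48 within control rats, and 0.33 without the 2 rats whose Penk lay farthest from the median. The opioid precursors Penk and Pdyn, both made by granule cells, gave r = -0.05 (permutation p = 0.853, adjusted p = 0.892) and rho = -0.03 (permutation p = 0.915, adjusted p = 1). For that pair r was -0.04 within learning rats, 0.03 within control rats and 0.13 without the 2 rats of farthest Penk.

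Penk tended to be higher in rats with a higher mean of markers of CA1, the hippocampal field next to the dentate gyrus. This relation did not pass adjustment. The mean of the 4 tested CA1 markers of 7 listed (Wfs1, Fibcd1, Lmo3 and Itpka) ran from 7.31 to 7.74 in learning rats and from 6.81 to 7.76 in control rats. Control replicate 5 was highest in its group for both the CA1 markers (7.76) and Penk (9.34), and control replicate 6 was lowest for both (6.81 and 7.94). Control replicate 3 stood apart, with a CA1 mean of 6.97 and a Penk level of 9.10. Across all 14 rats r was 0.70 (permutation p = 0.00556, adjusted p = 0.295 over 78 relations of a peptide with a list mean) and rho 0.64 (permutation p = 0.0158, adjusted p = 0.410). It was 0.38 within learning rats and 0.68 within control rats, 0.82 without the 2 rats of farthest CA1 mean, and 0.51 without control replicate 6 (permutation p = 0.0769). Within control rats Penk had a higher r with choroid plexus markers (0.83), the neuropeptide precursor Npff (0.81) and meningeal markers (0.77). Within learning rats these were 0.06, 0.27 and -0.69, and across all 14 rats 0.16, 0.53 and 0.26. Control replicates 3 and 5 had the highest choroid plexus means (7.975 and 7.920) and meningeal means (8.47 and 8.38) of their group. With the CA1 mean as a covariate, the Penk difference was -0.03 ± 0.16 (SE; limma adjusted p = 0.970), against 0.25 without it. This covariate was chosen after its correlation with Penk had been seen, and it was itself higher in learning rats by 0.30, with means of 7.51 in learning and 7.20 in control rats, so the fit does not test a part of CA1 tissue in the Penk level.

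**Figure D4:**
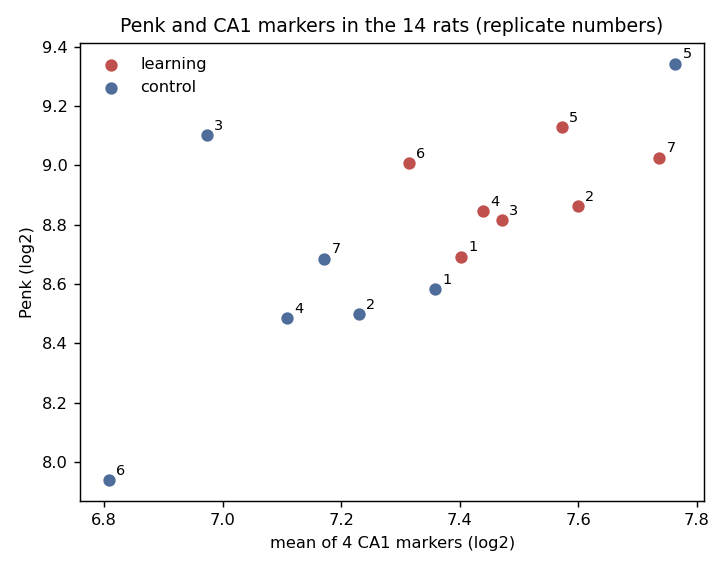
Penk level (vertical axis, log2) against the mean of 4 CA1 markers (horizontal axis, log2) in the 14 rats. Points carry the replicate number, learning rats in red and control rats in blue. Pearson's r is 0.38 within learning rats and 0.68 within control rats, with control replicate 3 apart from the rest.

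Wfs1 had the widest range of the 4 CA1 markers and ran from 7.27 to 8.45 in learning rats and from 5.48 to 8.90 in control rats. Lmo3 ran only from 8.31 to 8.52 in learning rats and from 8.09 to 8.50 in control rats. The SD in control rats was 1.07 for Wfs1, 0.29 for Fibcd1, 0.14 for Lmo3 and 0.13 for Itpka. Wfs1 thus weighed most in the CA1 mean of control rats. In learning rats the SD was 0.38 for Wfs1, 0.39 for Fibcd1, 0.09 for Lmo3 and 0.19 for Itpka. The relation of Penk with each marker alone was not tested. Cck gave its highest correlation with the mean of the 5 CA3 markers, with r = 0.67 (permutation p = 0.00757, adjusted p = 0.295) and rho = 0.81 (permutation p = 0.00065, adjusted p = 0.0507). The r was 0.50 within learning rats, 0.89 within control rats and 0.70 without the 2 rats of farthest CA3 mean. The 5 markers had no common direction. Learning minus control was 0.29 for Bok, 0.16 for Chgb and 0.13 for Grik4, but -0.27 for both Cadm1 and Elavl4. For their mean it was 0.0089. The relation of Cck with each CA3 marker alone was not tested. With the CA1 mean as a covariate the Cck difference was -0.02, against 0.09 without it. Of the 78 relations, 0 passed adjustment by Pearson's r. An unadjusted permutation p below 0.05 was found for 4 of them, about as many as that threshold gives by chance.

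Genes with the most similar pattern over the 14 rats, once group means were removed, were searched among 6691 tested genes for the 5 peptides whose spread was at least the median. They are a description, since the highest of so many correlations is large by selection. Penk was most like B4galt2 (r = 0.85), Tspan4 (0.84) and Unc119 (0.84). Pdyn was most like Padi2 (0.94), Adar (0.88) and Aplp2 (0.84), Npy like Rbm24 (0.87), Hp1bp3 (0.79) and Phc3 (0.76), and Cck like Micos13 (0.87), Fis1 (0.86) and Dvl1 (0.85). Cartpt was most like Stc1 (0.91), which encodes the secreted hormone stanniocalcin, Trit1 (0.85) and Bmyc (0.83). With group means kept, likeness over all 14 rats was weaker for some. Penk with Tspan4 gave r = 0.41 and rho = -0.09, and Pdyn with Adar gave r = 0.59 and rho = 0.27. The lowest limma adjusted p for learning minus control among these 15 genes was 0.302, that of Adar.

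Receptors of these peptides were mostly too dim to test: 19 of 23 listed genes were on the array and 4 passed the level for testing, 2 higher and 2 lower in learning rats. The somatostatin receptor Sstr2 averaged 7.24 in learning and 7.32 in control rats, a difference of -0.08, the PACAP receptor Adcyap1r1 10.15 in learning and 10.21 in control rats (-0.06), and the NPY receptor Npy5r 4.80 in learning and 4.77 in control rats (0.03). The opioid receptors Oprm1, Oprd1 and Oprk1 had means of 2.27, 1.89 and 2.04 in learning rats and 2.28, 1.89 and 2.04 in control rats. No receptor gene had an unadjusted p below 0.05, and the lowest adjusted p was 0.712 in limma.

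Genes for cutting and finishing peptides ranged from Cpe, at 13.81 in learning and 13.80 in control rats, to Qpct, at 3.86 in learning and 3.94 in control rats. Of 10 listed processing genes 8 were tested, 4 of them higher and 4 lower, and their median difference was 0.0016, against 0.0018 over all 6697 tested genes. Scg5, the chaperone of a prohormone convertase, averaged 12.06 in learning and 11.98 in control rats, a difference of 0.08 (limma adjusted p = 0.493). Ctsl, a cathepsin, differed by -0.10, and Pam, the amidating enzyme, by -0.07. Of 8 peptidases and binding proteins 3 were tested, Ece1 at -0.05, Prep at -0.05 and Thop1 at 0.03. Among 23 measured precursors of other neuropeptides, only Npff passed the level for testing, at 5.63 in learning and 5.52 in control rats (difference 0.11, limma adjusted p = 0.495). In all 4 of these lists, 0 genes had an unadjusted p below 0.05, against 12.6% of all tested genes.

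Marker lists of cell types that carry peptides and of other brain tissues, the striatum among them, had 0 genes past adjustment in limma. At an unadjusted p below 0.05 the count was 4 of 5 tested CA3 markers, 2 of 5 granule cell markers and 1 each of the 4 interneuron, 4 CA1, 3 striatal and 2 choroid plexus markers, against 12.6% of all tested genes. It was 0 for the mossy cell, thalamic and meningeal lists. Of 4 tested interneuron markers 2 were higher and 2 lower. Gad1 differed by -0.19 (unadjusted p = 0.0297) and the cannabinoid receptor Cnr1 by 0.17. Of 5 granule cell markers 4 were higher, with Dsp at 0.44 (unadjusted p = 0.00998), Stxbp6 at 0.22 (unadjusted p = 0.0398) and Calb1 at -0.03. The mean of the 5 was 9.39 in learning and 9.23 in control rats, a difference of 0.17. The mossy cell list had 1 tested member, Grm8, at -0.0054, and Csf2rb was under the level for testing. Of 4 CA1 markers 3 were higher, with Wfs1 at 0.95 (unadjusted p = 0.0255), Fibcd1 at 0.31, Lmo3 at 0.0025 and Itpka at -0.05, and of 5 CA3 markers 3 were higher, with Bok at 0.29, Chgb at 0.16, Cadm1 at -0.27 and Elavl4 at -0.27. The 2 thalamic markers Prkcd and Tcf7l2 differed by -0.0039 and 0.05. Of 3 striatal markers Pde10a differed by 0.33 and Ppp1r1b by -0.10. The striatal receptors Drd1 and Adora2a were at 3.24 and 2.36 in learning rats and 3.24 and 2.35 in control rats. Both tested choroid plexus markers were lower, Enpp2 by -0.04 and Ttr by -1.78, as were all 8 tested meningeal markers, with Ptgds at -0.70 and Vim at -0.62. The part of these cells and tissues in the peptide levels was not tested.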

How the data were processed

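Total RNA of 14 dentate gyri was hybridised to RAE230A arrays, 1 array per rat. Per the submitters' processing notes the authors used GCRMA, with no version or settings named in those notes, and the deposited values are on a log2 scale, as their range (-0.57 to 14.99) shows. The table holds 15923 probe sets, 57 of them controls. Of the others, 12783 had 1 gene symbol in the platform annotation, 312 several and 2771 none.

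Differences between learning and control rats came from limma 3.58.1 (R 4.3.3), fitted to the 9387 probe sets whose mean reached 4, with p-values adjusted by Benjamini-Hochberg over all of them. The fit and the correlations were also run on simulated data. For the fit the simulated SD was the same in both groups, so an unequal spread such as that of Penk was not covered. Correlations used 100000 permutations; single genes used exact permutation tests over 3432 assignments, whose smallest p is 0.000583. The number of arrays limits the precision. Figures were drawn with matplotlib 3.10.9.

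The members and lists were chosen with earlier results of these data known. Named are all 10 peptide genes, 3 genes of smallest p per gene list, 2 of highest mean per marker list and, per peptide of at least median spread, the 3 genes of highest r. Wfs1, Fibcd1, Dsp, Tdo2, Bok, Grik4, Elavl4, Cpe, Qpct, Gad2, Slc32a1, Drd1, Adora2a and the opioid receptors were added after their values were seen. So were the CA1 covariate, the lists' correlations and the fit without control replicates 5 and 6 together.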

Additional observations from a re-analysis of the deposited data

Results flagged for a closer look

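Within the 20 sets of 7 rats (10 transcripts in each group), 7 single values stood far from the others of their set by Dixon's test, where chance gives about 1 in 20 sets. Pdyn in control replicate 1 was 6.34, with the next control rat at 6.89. Sst in control replicate 1 was 4.21, with the next at 3.89, and Vip in control replicate 6 was 2.65, with the next at 2.87. The other 4 lie on probe sets of very narrow range. Crh was 2.63 in learning replicate 5, Tac1 was 1.96 in control replicate 4, and Adcyap1 was 4.19 in learning replicate 6 and 4.35 in control replicate 4.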

How the results depend on the processing

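Under 13 other settings of the fit, filters, scalings, priors, array weights and covariates among them, the count of tested peptide genes past the adjusted threshold stayed at 0. Among these, a floor at 3 could not move the values of the tested genes, which all lay above it. Neither could a mean over each gene's probe sets, with 1 probe set per gene. The count also stayed at 0 in each of the 14 fits that left out 1 rat. At an unadjusted p below 0.05 it was 0 to 1 in those 14 fits, and 1 without control replicates 5 and 6 together (Penk, 0.24, adjusted p = 0.364 in limma). These 2 rats had the highest and the lowest Penk level of the control group, and leaving both out was not planned. Over all probe sets the adjusted count was 0 to 1 with 1 rat left out (1 without learning replicate 1, learning replicate 4 or control replicate 6) and 0 in the other settings. With the CA1 mean as covariate, Penk was at -0.026 and Cck at -0.022. Cartpt ran from -0.090 to 0.014 with 1 rat left out, and the cause was not tested. The correlation of Penk and Pdyn was 0.014 once group means were removed, and ran from -0.22 to 0.14 with 1 rat left out. That of Penk and the CA1 mean ran from 0.51 to 0.90. Both groups carry replicate numbers 1 to 7, and the labels do not say that these pair rats. Deviations of same-numbered rats correlated between -0.28 and 0.26, above 0.1 in 4 of 7 pairs. These values do not settle whether the numbers pair rats, and the main fit did not use them. With the replicate number as a block, 1330 probe sets had an unadjusted p below 0.05, against 1230 without it, and Penk had an adjusted p of 0.471. In 2 of 7 learning rats the control rat of the same number was the one of highest correlation. The block changed no call. GCRMA's compression near background limits Adcyap1, Sst, Vip, Crh and Tac1.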

Other observations

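Learning replicate 5 had the highest value of its group for 5 of the 10 peptide transcripts: Penk (9.13), Npy (8.07), Cck (10.60), Vip (3.27) and Crh (2.63). Learning replicate 3 had the lowest value for 4 of them, Sst (3.54), Cck (10.06), Tac1 (1.96) and Vip (2.92). In the control group no rat was highest for more than 3 transcripts, which were Sst, Cck and Crh in replicate 1. The same rat was lowest in the control group for Pdyn.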
